A study of Mus musculus with 6 samples.

Results

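*Sardh* and 9 other enzymes of choline, glycine and folate one-carbon metabolism were followed in the duodenal epithelium of mice with and without the estrogen-related receptor ESRRA. *Sardh* was chosen by its higher FPKM in *Esrra*-/- than in WT in these same libraries. Its difference between the genotypes is therefore described here and carries no test. The others, *Dmgdh*, *Chdh*, *Gnmt*, *Bhmt*, *Shmt1*, *Shmt2*, *Mthfd1*, *Mthfd2* and *Mthfd1l*, were taken for their place in the same chemistry. All 10 are among the 22611 genes of the expression table, and 7 had a mean above 1 FPKM, the level required for a test. FPKM counts sequenced fragments scaled by transcript length and by the size of the library, so levels of different genes can be set side by side.

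The groups were 3 WT mice and 3 *Esrra*-/- mice, with 1 RNA-seq library each. The *Esrra*-/- mice were germline nulls that lack the receptor in every tissue, and the WT mice were littermate controls. Both groups were fed a high-fat diet for several weeks, and both sexes were used. The ages, and whether the controls carried the floxed *Esrra* allele or the *Villin-Cre*ERT2 transgene that was bred into the colony, are not given in the sources used here. The epithelium was released from the duodenum with EDTA, and no separation of crypts from villi is given for these samples.

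Choline that is not built into phospholipid is oxidised in mitochondria. Choline dehydrogenase, the product of *Chdh*, starts its conversion to betaine, and betaine hands 1 methyl group to homocysteine through BHMT. The dimethylglycine that is left loses its remaining methyl groups in the mitochondrial matrix, the first to DMGDH and the next to SARDH, which turns sarcosine into glycine. Sarcosine is also made in the cytosol from glycine by GNMT. The carbons released are carried by tetrahydrofolate, onto which serine hydroxymethyltransferases and the MTHFD enzymes also load and convert one-carbon units for the synthesis of purines, thymidylate and methionine. This oxidation of choline is best known from liver and kidney, whereas folate enzymes are high in dividing cells, which in the intestine lie in the crypts.

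Before the enzymes are described, the libraries were checked. *Esrra* had 49.4, 73.5 and 104 FPKM in WT and 10.4, 9.42 and 8.72 FPKM in *Esrra*-/-, with no overlap. The 10 villus enterocyte markers were abundant, led by *Apoa4*, and summed to between 34330 and 53891 FPKM in WT and between 41846 and 54964 FPKM in *Esrra*-/-. Y-linked transcripts were at a trace in replicate 3 of each genotype, where *Ddx3y*, *Eif2s3y*, *Kdm5d* and *Uty* summed to 0.0487 and 0.222 FPKM, against 27.3 to 46.7 FPKM in the other 4 libraries. FPKM hold no total of fragments. Among genes under 0.2 FPKM, the most frequent ratio to WT replicate 1 was 0.978 to 1.21 in the other 5 libraries. It covered 12.7% to 20.3% of these genes, and reading it as a ratio of the values of 1 fragment is an assumption. Error was taken from the spread between these 6 animals only. In the fits below, each gene's spread was moderated towards that of genes of similar level. Each p-value weighs a difference between the genotypes against this moderated error. Nothing in the labels ties libraries to litters.

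*Sardh*, sarcosine dehydrogenase, lies on the minus strand of chromosome 2, chr2:27043913-27103857 of mm9 (NCBIM37, GENCODE release M1). It had 4.80, 3.67 and 5.08 FPKM in WT replicates 1 to 3 and 15.6, 11.6 and 19.4 FPKM in *Esrra*-/- replicates 1 to 3. Every *Esrra*-/- library stood far above every WT library. The means were 4.51 ± 0.748 and 15.5 ± 3.87 FPKM (SD, n = 3 mice each), a ratio of 3.44, and the log2 fold change on log2(FPKM + 0.1) was 1.74. With any 1 library left out it ran from 1.57 to 1.94. *Sardh* is a mitochondrial enzyme, and by level it moved from the sixth place among the 10 enzymes in WT to the second in *Esrra*-/-.

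**Figure D1:**
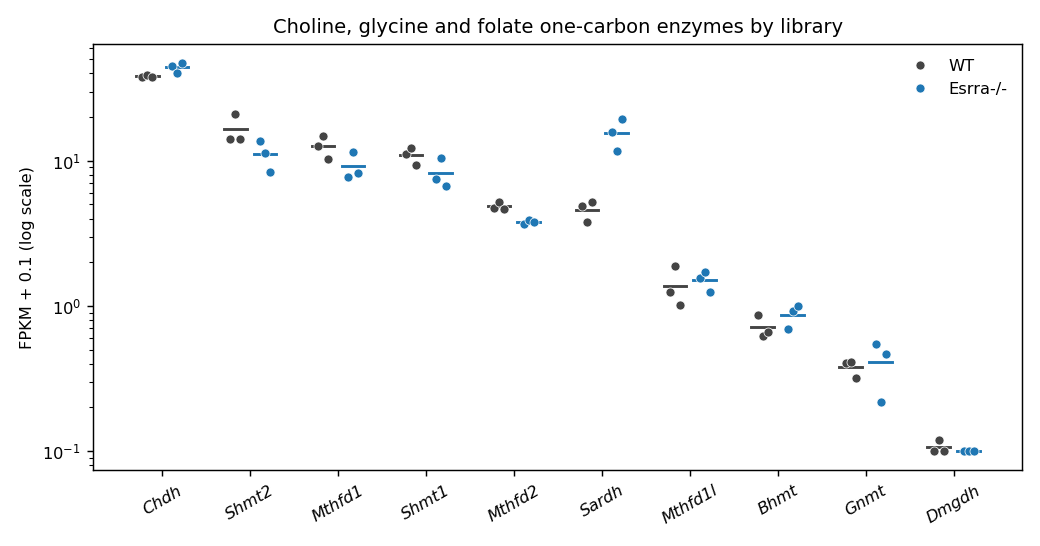
FPKM + 0.1 on a log axis for the 10 enzymes, ordered by their WT mean; dots are single mice (3 WT in grey, 3 *Esrra*-/- in blue) and bars are group means. *Sardh* is at 3.67 to 5.08 FPKM in WT and at 11.6 to 19.4 FPKM in *Esrra*-/-, while *Bhmt*, *Gnmt* and *Dmgdh* stay under 1 FPKM in all 6 libraries.

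Of 6 listed genes around *Sardh*, 3 were tested (*Vav2*, *Brd3* and *Wdr5*), and 0 were called as changed, where 3.28% of all genes were called lower and 1.35% higher. A call here required a log2 fold change beyond 0.58 together with a limma p under 0.05 before adjustment, in a fit across all 10596 genes with a mean above 1 FPKM. On its 5′ side, *Vav2*, a guanine nucleotide exchange factor 13767 bases away, had 15.1, 10.9 and 15.8 FPKM in WT and 18.6, 10.8 and 17.4 FPKM in *Esrra*-/-. Its log2 fold change was 0.14 (standard error, SE, 0.24, adjusted p = 0.859), and the groups overlapped. Further out, *Brd3*, which encodes a bromodomain protein, had a log2 fold change of 0.07 (SE 0.20, adjusted p = 0.923). *Wdr5*, a subunit of histone methyltransferase complexes, had one of −0.20 (SE 0.11, adjusted p = 0.570), with all 3 *Esrra*-/- values below all 3 WT values. On the 3′ side *Dbh*, the dopamine beta-hydroxylase gene 5193 bases away, and *Fam163b* were listed at 0 in all 6 libraries, and *Adamtsl2* stayed between 0.0159 and 0.106 FPKM, and these 3 entered no test. The annotation places a noncoding gene, *Gm17071*, within *Sardh* on the opposite strand. It has no row in the expression table, and the counting is not stated to use strand. Overlap of its exons with those of *Sardh* was not examined, so whether its reads could enter the *Sardh* value is unknown.

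**Figure D2:**
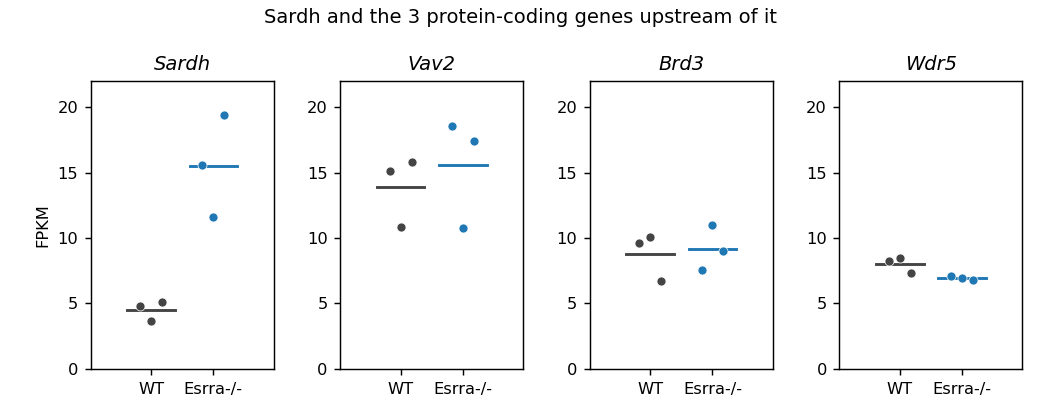
FPKM of *Sardh* and of *Vav2*, *Brd3* and *Wdr5*, the next 3 protein-coding genes on its 5′ side, on a common linear axis; dots are single mice and bars are group means (n = 3 each). The genotypes are far apart for *Sardh* and overlap for *Vav2* and *Brd3*, and for *Wdr5* the *Esrra*-/- values of 6.78 to 7.12 FPKM lie just below the WT values of 7.34 to 8.44 FPKM.

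ESRRA is known to bind the sequence TCAAGGTCA, which contains AAGGTCA and, within that, the nuclear receptor half-site AGGTCA. These 3 nested words were searched on both strands from 250 bases before to 50 bases after the transcription start, in RefSeq promoters (GRCm38.p6). All 10 enzymes were found there, with 3 starts for *Chdh* and 1 for each other gene. Of 32851 such promoters, 0.423% hold TCAAGGTCA, 4.72% hold AAGGTCA and 16.3% hold AGGTCA. *Sardh* has AGGTCA once, 204 bases before its start, and neither longer word. *Bhmt* is the one of the 10 with TCAAGGTCA, 75 bases before its start, and it has AAGGTCA a second time 48 bases before it and AGGTCA alone 234 bases before it. *Mthfd1* has AGGTCA once, 151 bases before its start, and *Gnmt* once on the opposite strand, 181 bases before it. The other 6 genes, *Chdh*, *Dmgdh*, *Shmt1*, *Shmt2*, *Mthfd2* and *Mthfd1l*, have none of the 3 words in these windows. A match describes the letters and is not a measured binding site, and a window without one says nothing about binding.

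Stretches from 3 of these promoters are printed 5′ to 3′ in the direction of the gene, with the searched words in capitals, placed on mm9 by exact match to the NCBIM37 genome. They show the half-site before the start of *Sardh*, the full word at *Bhmt*, which was hardly expressed in this tissue, and the half-site at *Mthfd1*, whose mean was lower in *Esrra*-/-. The *Sardh* stretch is chr2:27102935-27103073 on the minus strand, in an intron of a longer annotated *Sardh* transcript. The *Bhmt* stretch, cut to 30 bases, is chr13:94407769-94407798 on the minus strand, in the 5′ untranslated part of the annotated first exon. The *Mthfd1* stretch is chr12:77355969-77356218 on the plus strand and ends at the base before the annotated gene.
Sardh: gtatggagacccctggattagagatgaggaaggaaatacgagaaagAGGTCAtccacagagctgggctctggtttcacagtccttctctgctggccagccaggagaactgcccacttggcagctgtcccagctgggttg
Bhmt: tgaccccagaTCAAGGTCAgaggcctgcta
Mthfd1: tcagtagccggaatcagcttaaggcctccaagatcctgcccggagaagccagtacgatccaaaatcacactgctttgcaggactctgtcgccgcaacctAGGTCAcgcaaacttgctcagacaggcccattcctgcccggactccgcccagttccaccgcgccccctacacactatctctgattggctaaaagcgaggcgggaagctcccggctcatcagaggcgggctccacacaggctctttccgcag

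*Dmgdh*, *Gnmt* and *Bhmt* had the lowest levels of the 10 enzymes. *Dmgdh*, dimethylglycine dehydrogenase (chr13:94444388-94522786, plus strand), was listed at 0 in 5 of 6 libraries and at 0.0186 FPKM in WT replicate 2. *Gnmt*, glycine N-methyltransferase (chr17:46862613-46866117, minus strand), had 0.304, 0.308 and 0.219 FPKM in WT and 0.448, 0.119 and 0.368 FPKM in *Esrra*-/-, and the groups overlapped. *Bhmt*, betaine-homocysteine methyltransferase (chr13:94386846-94407916, minus strand), had 0.763, 0.525 and 0.562 FPKM in WT and 0.599, 0.817 and 0.893 FPKM in *Esrra*-/-, again with overlap. Of the 31-base words in the coding transcripts of *Bhmt*, 55.7% also occur in other genes, mostly *Bhmt-ps1*, which was listed at 0 in every library, so the value of *Bhmt* is uncertain. *Bhmt2*, its close relative that uses S-methylmethionine, stayed between 0.264 and 0.548 FPKM. These 3 enzymes fell under the mean of 1 FPKM and entered no test.

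*Dmgdh*, *Gnmt* and *Bhmt* are abundant in liver, and *Gnmt* also in pancreas, so markers of both organs were read beside them. Of 12 hepatocyte markers, 11 stayed under 1 FPKM in every library, and *Fga*, *Fgb*, *Fgg* and *Itih3* were listed at 0. The list summed to between 1.89 and 2.95 FPKM in WT and between 0.998 and 2.13 FPKM in *Esrra*-/-, with *Cyp2e1* the highest. Of 14 pancreatic acinar markers, *Prss2*, *Cela2a*, *Cela3b*, *Cpa1*, *Pnlip* and *Amy2a5* were listed at 0 in all 6 libraries. *Clps*, colipase, was the most abundant, with 170 to 304 FPKM in WT and 43.3 to 155 FPKM in *Esrra*-/-, and it was called lower (log2 fold change −1.24, unadjusted p = 0.0313, adjusted p = 0.415) with no overlap. The 13 others summed to between 4.68 and 6.48 FPKM in WT and between 5.41 and 6.17 FPKM in *Esrra*-/-. Of the 14, 3 were tested, and 2 of these had positive and 1 a negative log2 fold change. Among them 1 was called lower and 0 higher, against 3.28% and 1.35% of all genes. In 1 of them *Esrra*-/- was higher with no overlap, which was so for 8.45% of all genes.

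*Chdh*, at the head of choline oxidation (chr14:30822209-30853652, plus strand), was the most abundant of the 10 enzymes. It had 37.8, 38.7 and 37.9 FPKM in WT and 44.7, 40.4 and 46.8 FPKM in *Esrra*-/-. All 3 *Esrra*-/- values lay above all 3 WT values, a pattern that 8.45% of the 10596 genes tested showed in this direction. The means were 38.2 ± 0.477 and 44.0 ± 3.26 FPKM (SD, n = 3 each) and the log2 fold change was 0.20 (SE 0.12, adjusted p = 0.579), which did not pass the test. Over the alternatives tried the log2 fold change of *Chdh* stayed between 0.14 and 0.26, with a limma adjusted p from 0.285 to 0.854.

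Of 7 further genes of choline oxidation and its electron acceptors, 6 were tested, and 0 were called, where 3.28% of all genes were called lower and 1.35% higher. The aldehyde dehydrogenase gene *Aldh9a1* was the most abundant, with 217 ± 34.7 FPKM in WT and 228 ± 10.2 in *Esrra*-/- (SD, n = 3 each). *Aldh7a1*, which also oxidises betaine aldehyde, had 2.47 ± 0.445 and 1.97 ± 0.139 FPKM. *Etfa*, *Etfb* and *Etfdh*, which take up the electrons that SARDH and DMGDH release, had log2 fold changes of −0.02, −0.04 and −0.08 (SE 0.18, 0.24 and 0.14). *Pipox*, the peroxisomal sarcosine oxidase, had 21.6 ± 7.33 FPKM in WT and 26.5 ± 4.75 in *Esrra*-/-, a log2 fold change of 0.33 (SE 0.25, adjusted p = 0.666). It stood above *Sardh* in all 6 libraries.

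Among the folate enzymes, 4 of 5 had lower means in *Esrra*-/-. *Shmt2*, the mitochondrial serine hydroxymethyltransferase (chr10:126954195-126959491, minus strand), had 14.0, 21.0 and 13.9 FPKM in WT and 13.5, 11.2 and 8.22 FPKM in *Esrra*-/-. The groups did not overlap, though *Esrra*-/- replicate 1 came close to the lowest WT library. The log2 fold change was −0.57 (SE 0.23, unadjusted p = 0.0426, adjusted p = 0.444), just short of the 0.58 set for a call. With any 1 library left out it ran from −0.74 to −0.38. *Shmt1*, its cytosolic counterpart (chr11:60601606-60625220, minus strand), had 11.0, 12.0 and 9.31 FPKM in WT and 7.34, 10.4 and 6.65 FPKM in *Esrra*-/-, with overlap through *Esrra*-/- replicate 2. Its log2 fold change was −0.42 (SE 0.19, adjusted p = 0.490).

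*Mthfd1*, the trifunctional folate enzyme of the cytosol (chr12:77356219-77420807, plus strand), had 12.6, 14.6 and 10.1 FPKM in WT and 7.69, 11.3 and 8.19 FPKM in *Esrra*-/-. Its log2 fold change was −0.46 (SE 0.20, adjusted p = 0.470), and *Esrra*-/- replicate 2 again overlapped WT. *Mthfd2*, a mitochondrial dehydrogenase and cyclohydrolase known from dividing cells (chr6:83255685-83267600, minus strand), had 4.63, 5.08 and 4.52 FPKM in WT and 3.58, 3.81 and 3.67 FPKM in *Esrra*-/-. The groups did not overlap and the spread within each was small, and the log2 fold change was −0.36 (SE 0.13, unadjusted p = 0.0252, adjusted p = 0.393). *Mthfd1l*, the mitochondrial formate-forming ligase (chr10:6179460-6373423, minus strand), had 1.14, 1.78 and 0.921 FPKM in WT and 1.46, 1.63 and 1.14 FPKM in *Esrra*-/-. Its groups overlapped, with a log2 fold change of 0.16 (SE 0.31, adjusted p = 0.876), which turned to −0.031 without WT replicate 3.

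Of the 6 enzymes other than *Sardh* that were tested, 0 were called lower, against 3.28% of all genes tested, and 0 were called higher, against 1.35%. At an unadjusted p under 0.05 alone, 2 were lower, *Shmt2* and *Mthfd2*, against 6.49% of all genes, and 0 were higher, against 4.3%. The 2 lower became 0 without WT replicate 2 or *Esrra*-/- replicate 3, 1 without WT replicate 1 or *Esrra*-/- replicate 1, 3 without *Esrra*-/- replicate 2 and 4 without WT replicate 3. *Shmt2* and *Mthfd2* had groups that did not overlap, with *Esrra*-/- lower, which was so for 9.14% of all genes. The median log2 fold change of the 6 was −0.39, where that of all genes tested was 0.03. The 0 called lower became 1 without WT replicate 1 (*Shmt2*), 2 without WT replicate 3 (*Mthfd1* and *Shmt2*), 1 without *Esrra*-/- replicate 1 (*Shmt2*) and 2 without *Esrra*-/- replicate 2 (*Mthfd1* and *Shmt1*). It was also 1 (*Shmt2*) under quantile normalization and under median-ratio scaling.

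Apart from *Sardh*, the order of the levels was the same in both genotypes. In WT the means ran from *Chdh* at 38.2 ± 0.477 FPKM over *Shmt2* at 16.3 ± 4.04, *Mthfd1* at 12.4 ± 2.25 and *Shmt1* at 10.8 ± 1.38 to *Mthfd2* at 4.74 ± 0.298 and *Sardh* at 4.51 ± 0.748 FPKM (SD, n = 3 each). *Mthfd1* overlapped in its WT values with both *Shmt2* and *Shmt1*, and *Mthfd2* with *Sardh*, so these neighbours were not separated by their spread. In *Esrra*-/- *Sardh* at 15.5 ± 3.87 FPKM stood between *Chdh* at 44.0 ± 3.26 and *Shmt2* at 11.0 ± 2.65 FPKM. Its values overlapped there with those of *Shmt2*, whose highest was 13.5 FPKM. *Mthfd1l*, *Bhmt*, *Gnmt* and *Dmgdh* were the lowest in both genotypes, in this order.

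**Figure D3:**
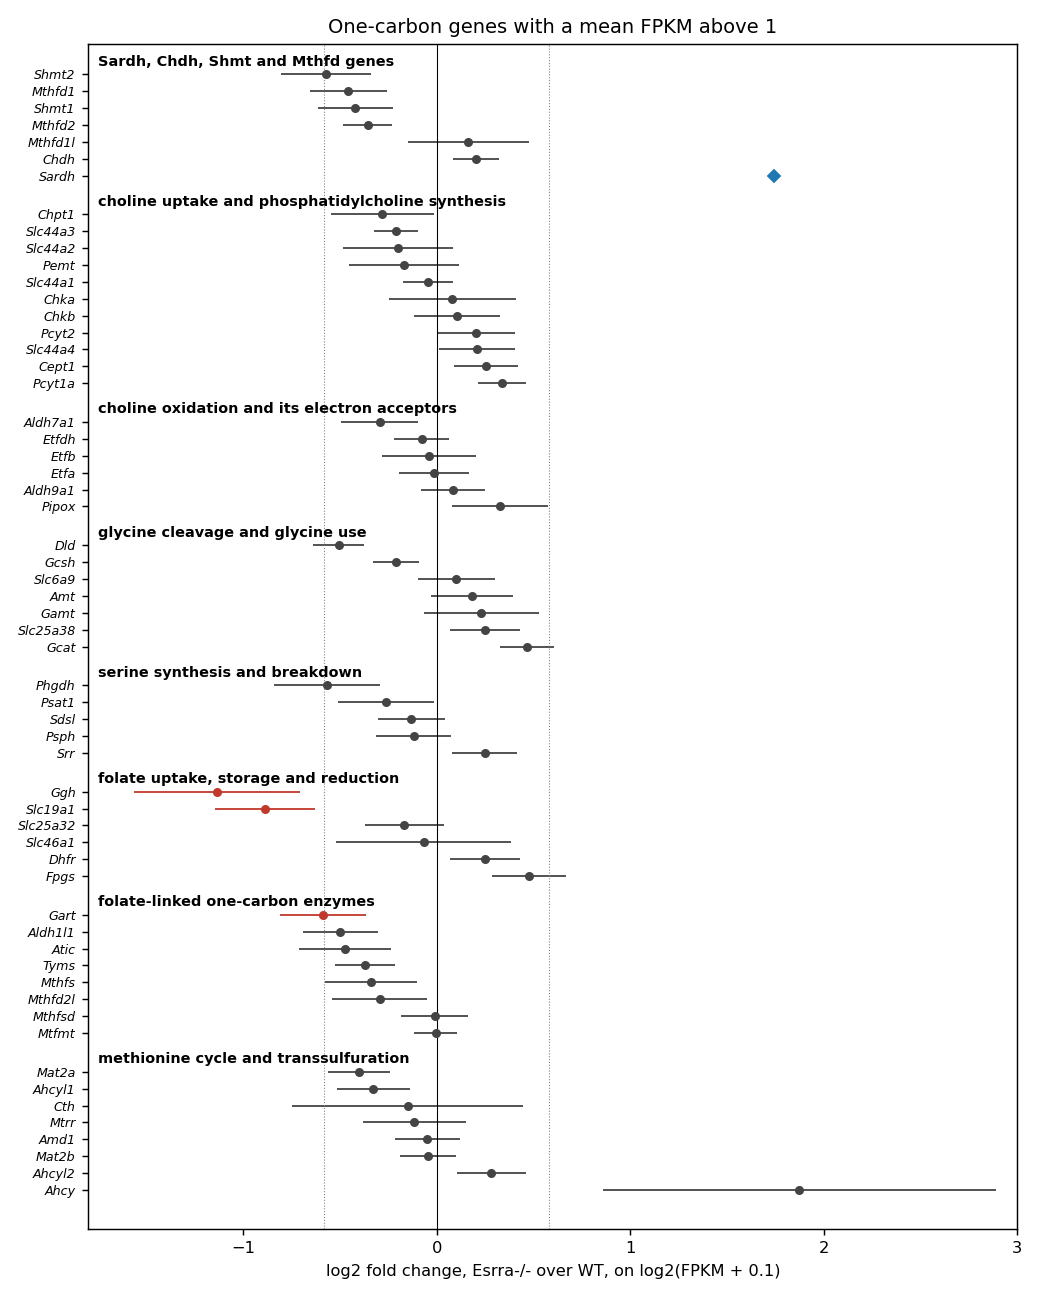
Log2 fold change, *Esrra*-/- over WT on log2(FPKM + 0.1), of the 7 enzymes and 51 further one-carbon genes with a mean above 1 FPKM; bars are SE from limma (n = 3 each), dotted lines mark 0.58 in either direction, and red marks genes called lower. *Sardh*, shown without error because it was picked for this value, stands at 1.74. *Slc19a1*, *Ggh* and *Gart* are red, and *Ahcy* at 1.87 has a standard error of 1.02.

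The wider network was read from 71 further genes of choline, glycine, serine, folate and methionine metabolism, of which 51 were tested. Of these 3 were called lower (3.28% of all genes were) and 0 were called higher (1.35%). At an unadjusted p under 0.05 there were 7 lower and 3 higher, against 6.49% and 4.3% of all genes, and none had a limma adjusted p under 0.05. The 7 became 2 without WT replicate 1 and 3 without WT replicate 2 or *Esrra*-/- replicate 1. They became 5 without *Esrra*-/- replicate 3, 6 without WT replicate 3 and 8 without *Esrra*-/- replicate 2. The 3 became 4 without *Esrra*-/- replicate 1, and 2 without any one of the 3 WT libraries or of *Esrra*-/- replicates 2 and 3. The median log2 fold change of the 51 was −0.07. The 3 called genes were *Slc19a1*, *Ggh* and *Gart*.

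*Slc19a1*, the reduced folate carrier, fell from 11.7, 9.78 and 10.7 FPKM in WT to 5.27, 4.14 and 8.70 FPKM in *Esrra*-/-, with no overlap. Its log2 fold change was −0.89 (SE 0.26, unadjusted p = 0.0102, adjusted p = 0.331), and it was called with every library left out in turn. *Ggh*, gamma-glutamyl hydrolase, which trims the glutamate tail of stored folate, fell from 6.52, 7.34 and 5.93 FPKM to 3.55, 5.17 and 1.36 FPKM. *Esrra*-/- replicate 3 was far below the others, and the log2 fold change was −1.14 (SE 0.43, unadjusted p = 0.0319, adjusted p = 0.417). Without *Esrra*-/- replicate 3 it was −0.61, and the call was lost without WT replicate 1, 2 or 3. *Gart*, a purine synthesis enzyme that uses formyl-tetrahydrofolate, had 8.73, 8.75 and 6.50 FPKM in WT and 5.15, 6.92 and 4.01 FPKM in *Esrra*-/-, with overlap. Its log2 fold change was −0.59 (SE 0.22, unadjusted p = 0.0317, adjusted p = 0.417), and its call was lost without WT replicate 1 or 2, without *Esrra*-/- replicate 1 or 3, and with a pseudocount of 1. In number, the 3 genes called lower became 1 without WT replicate 1 or 2, 2 without *Esrra*-/- replicate 1, and 5 without WT replicate 3 or *Esrra*-/- replicate 2. The 0 called higher became 1 without WT replicate 1 (*Fpgs*), 1 without WT replicate 3 (*Pipox*), 3 without *Esrra*-/- replicate 1 (*Ahcy*, *Cth* and *Fpgs*) and 1 without *Esrra*-/- replicate 2 (*Ahcy*).

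The 8 further folate-linked enzymes that were tested, *Mthfd2l* among them, had negative log2 fold changes, as had 4842 of the 10596 genes tested, with a median of −0.35, and 1 was called lower, against 3.28% of all genes. Among the 8, *Mtfmt* at −0.005 (SE 0.11) and *Mthfsd* at −0.0098 (SE 0.17) were hardly changed. The most abundant, *Aldh1l1*, which oxidises formyl-tetrahydrofolate in the cytosol, had 29.8 ± 4.04 FPKM in WT and 21.3 ± 5.09 in *Esrra*-/-, a log2 fold change of −0.50 (SE 0.19, adjusted p = 0.423). *Tyms*, thymidylate synthase, had one of −0.37 (SE 0.15, adjusted p = 0.453). No scaling shifted the median of all genes by more than 0.1. Of the 6 genes of folate uptake, storage and reduction, *Slc46a1*, the proton-coupled folate transporter through which the duodenum takes up dietary folate, was the most abundant, with 171 ± 80.8 FPKM in WT and 170 ± 100 in *Esrra*-/- (SD, n = 3 each). *Fpgs*, which adds the glutamate tail that GGH removes, had a log2 fold change of 0.48 (SE 0.19, unadjusted p = 0.0392, adjusted p = 0.433). *Aldh1l2*, *Folr1* and *Folr2* stayed under 1 FPKM, and *Ftcd* and *Folh1* were listed at 0.

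Beside the folate enzymes, crypt markers had lower means in *Esrra*-/- as well. Of 10 crypt markers 9 had lower means and 1 was called lower, against 3.28% of all genes, and they summed to between 227 and 353 FPKM in WT and between 116 and 268 FPKM in *Esrra*-/-. *Olfm4*, the most abundant of them, had 104 to 205 FPKM in WT and 36.1 to 149 FPKM in *Esrra*-/-. All 5 Paneth cell markers, led by *Defa24*, had lower means, 4 of them were called lower, against the same 3.28%, and they summed to between 9223 and 18449 FPKM in WT and between 1741 and 7682 FPKM in *Esrra*-/-. Of the 10 villus enterocyte markers, 0 had a lower mean in *Esrra*-/- and 0 were called in either direction. Within each genotype the crypt sum was highest in replicate 2, and so were *Shmt1*, *Mthfd1*, *Mthfd2*, *Mthfd1l*, *Ggh* and *Gart*. For *Gart* the lead in WT was narrow, at 8.75 FPKM against 8.73 FPKM in replicate 1. The share of all genes with this order was not counted. *Shmt2*, *Tyms* and *Aldh1l1* did not follow this order in both genotypes, and *Slc19a1*, like *Sardh*, was lowest in replicate 2 of each genotype. In bulk tissue, fewer cells of a type and less RNA per cell cannot be told apart, and the part of the crypt cells in these differences was not tested. Goblet markers, led by *Tff3*, summed to between 3872 and 4901 FPKM in WT and between 3454 and 4092 FPKM in *Esrra*-/-, and enteroendocrine markers, led by *Sct*, summed to between 182 and 262 FPKM and between 205 and 227 FPKM. Immune markers, led by *Cd8a*, summed to between 20.5 and 32.4 FPKM in WT and between 19.5 and 33.0 FPKM in *Esrra*-/-. Mesenchymal markers, led by *Vim*, stayed at 2.41 to 4.33 FPKM and 2.48 to 7.12 FPKM. Means were lower in *Esrra*-/- for 3 of 6 goblet, 5 of 6 enteroendocrine, 5 of 8 immune and 1 of 8 mesenchymal markers, and of these lists 1 goblet marker was called lower and 0 others were called.

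**Figure D4:**
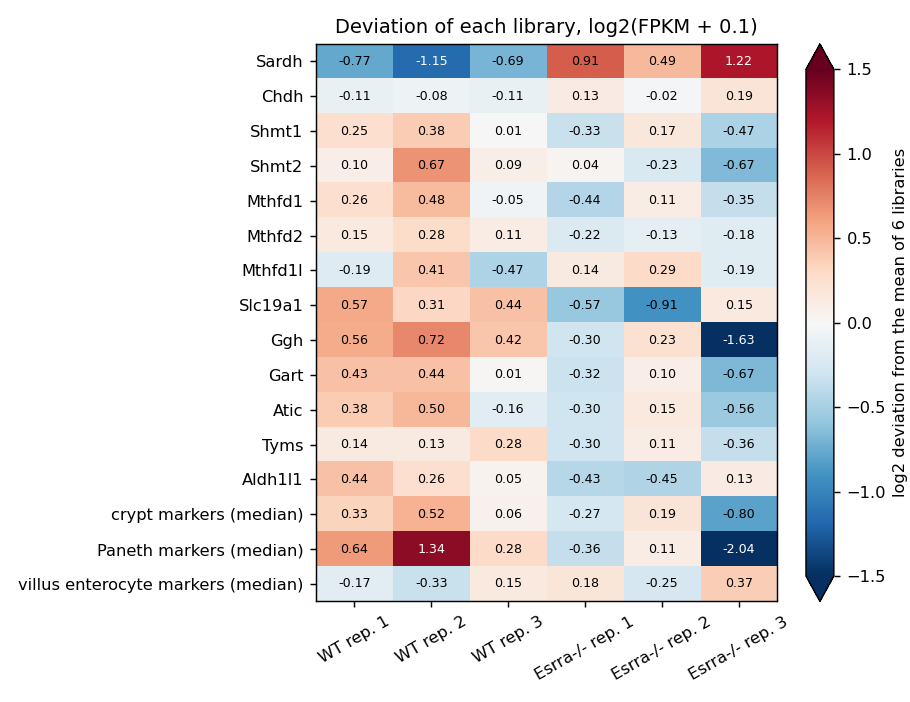
Log2 deviation of each library from the mean of the 6 libraries, on log2(FPKM + 0.1), for 13 genes and for the median of the crypt (10 genes), Paneth (5) and villus enterocyte (10) markers; columns are libraries, and colours end at 1.5 in either direction. *Sardh* runs from −1.15 in WT replicate 2 to 1.22 in *Esrra*-/- replicate 3, and the crypt markers run the other way, from 0.52 to −0.80 in the same libraries.

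Around glycine, *Dld*, the dihydrolipoamide dehydrogenase shared by the glycine cleavage system and the oxoacid dehydrogenases, was the most abundant gene, with 69.8 ± 6.21 FPKM in WT and 49.1 ± 3.44 in *Esrra*-/-. Its groups did not overlap, and its log2 fold change was −0.51 (SE 0.13, unadjusted p = 0.0061, adjusted p = 0.304). *Gldc*, the glycine decarboxylase itself, was listed at 0 in 4 of 6 libraries and did not exceed 0.0296 FPKM. *Gcat*, which cleaves the threonine product 2-amino-3-ketobutyrate to glycine, had 22.4 ± 0.448 FPKM in WT and 31.2 ± 4.66 in *Esrra*-/-. The groups did not overlap, and the log2 fold change was 0.46 (SE 0.14, unadjusted p = 0.0115, adjusted p = 0.342), short of a call. Of the 5 serine genes tested 0 were called, against the same 3.28% and 1.35%, with a median of −0.13. *Srr*, serine racemase, was the highest, with 32.8 ± 2.93 and 39.3 ± 7.50 FPKM, and *Phgdh*, the first enzyme of serine synthesis, had a log2 fold change of −0.57 (SE 0.27, adjusted p = 0.509).

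The list of choline uptake, which supplies CHDH, and phosphatidylcholine synthesis, which uses the same choline, held 11 tested genes with a median log2 fold change of 0.08, and 0 were called, against 3.28% lower and 1.35% higher of all genes. *Pcyt2*, of the ethanolamine branch, was the most abundant, with 171 ± 36.3 FPKM in WT and 195 ± 23.3 in *Esrra*-/-. *Pcyt1a*, the rate-limiting enzyme of the choline branch, had 52.1, 52.7 and 45.7 FPKM in WT and 63.4, 62.2 and 64.3 FPKM in *Esrra*-/-. These groups did not overlap, with *Esrra*-/- higher, which was so for 8.45% of all genes. The log2 fold change of *Pcyt1a* was 0.34 (SE 0.12, unadjusted p = 0.0273, adjusted p = 0.399). The choline transporter genes *Slc44a1*, *Slc44a2*, *Slc44a3* and *Slc44a4* had log2 fold changes of −0.05, −0.20, −0.21 and 0.21 (SE 0.13, 0.28, 0.11 and 0.20). Of these only *Slc44a3* had groups that did not overlap, with *Esrra*-/- lower, which was so for 9.14% of all genes. *Pcyt1a*, *Gcat* and *Fpgs* are the 3 genes that were higher at an unadjusted p under 0.05, and they and the other genes named beside the most abundant of each list were singled out after their values were seen.

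In the methionine cycle 8 genes were tested, with a median log2 fold change of −0.08, and 0 were called, against 3.28% lower and 1.35% higher of all genes. *Mat2a*, which makes S-adenosylmethionine outside the liver, had 29.9 ± 4.32 FPKM in WT and 22.6 ± 2.84 in *Esrra*-/-, a log2 fold change of −0.40 (SE 0.16, unadjusted p = 0.0382, adjusted p = 0.431). *Ahcyl2* was the most abundant by mean, with 88.2 ± 8.22 and 108 ± 22.3 FPKM. *Mtr*, which remethylates homocysteine with methyl-folate, was between 0.592 and 1.05 FPKM in WT and between 0.371 and 0.496 FPKM in *Esrra*-/-, with no overlap. Its mean kept it out of the test, and with no filter it was called lower (log2 fold change −0.73, unadjusted p = 0.0418). *Mat1a* did not exceed 0.0204 FPKM, and *Cbs* did not exceed 0.303 FPKM.

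*Ahcy*, which hydrolyses the S-adenosylhomocysteine left by methyl transfer, had 3.49, 3.52 and 4.08 FPKM in WT and 5.23, 5.34 and 91.8 FPKM in *Esrra*-/-. *Esrra*-/- replicate 3 alone was high. Of the 31-base words in its coding transcripts 75.6% also occur in other genes, mostly *Gm4737*, which had 72.4, 80.2 and 74.5 FPKM in WT and 101, 103 and 60.7 FPKM in *Esrra*-/-. The values of *Ahcy* and *Gm4737* are uncertain as separate genes. Their sum, taken after both had been seen, was 75.9, 83.7 and 78.6 FPKM in WT and 107, 108 and 152 FPKM in *Esrra*-/-, with no overlap and a ratio of the means of 1.54. For *Sardh*, *Dmgdh*, *Chdh*, *Gnmt*, *Shmt2*, *Mthfd1*, *Mthfd2* and *Mthfd1l*, none of the 31-base words occurred in the annotated protein-coding transcripts of another gene, and for *Shmt1* 0.0688% did.

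The genes whose levels over the 6 libraries were most like those of *Sardh* are given as a description, by Pearson's r on log2(FPKM + 0.1). The libraries share the genotype difference for which *Sardh* was picked, so r includes that difference. *Pde9a* (r = 0.99), a phosphodiesterase gene, had 46.9 to 51.4 FPKM in WT and 56.8 to 62.8 FPKM in *Esrra*-/-. *Oxsr1*, *Fads6*, *Itpk1* and *Gm17527* followed, also at 0.99. *Fads6*, of the fatty acid desaturase family, had 0.657, 0.383 and 0.479 FPKM in WT and 3.21, 2.15 and 3.59 FPKM in *Esrra*-/-, and *Esrra*-/- replicate 2 was the lowest of its group, as for *Sardh*. *Gm17527* had 16.9, 5.63 and 36.9 FPKM in *Esrra*-/- and was at 0 in the WT libraries. The most opposite genes were *Sgol1*, *Tnfaip8l1* and *C1qbp*, each with r = −0.99, and *C1qbp*, a mitochondrial matrix protein, had 53.6 to 64.1 FPKM in WT and 29.6 to 41.7 FPKM in *Esrra*-/-. Among the other enzymes r with *Sardh* was 0.92 for *Chdh*, −0.98 for *Mthfd2*, −0.85 for *Shmt1* and for *Mthfd1*, −0.82 for *Shmt2* and 0.02 for *Mthfd1l*.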

How the data were processed

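The data were 6 RNA-seq libraries of duodenal epithelium, 3 of each genotype. Read quality was inspected with fastQC, Kallisto was run against mm9 and the authors derived FPKM with DESeq2, and the deposited FPKM of 22611 genes were analysed here. The annotation used and the strand setting are not given in the sources used here. A second deposited file holds only the authors' own comparison (mean counts, fold changes, p-values) and was not used. From the FPKM, log2(FPKM + 0.1) of the 10596 genes with a mean above 1 FPKM was fitted with limma 3.58.1 in R 4.3.3 (lmFit, eBayes with a mean-variance trend, no covariate) and adjusted by Benjamini-Hochberg over all genes tested. Calls used the thresholds of the paper, a log2 fold change beyond 0.58 and p under 0.05 before adjustment. No count test was run, since the values are FPKM. The fit was tested on simulated data. The enzymes and gene lists were chosen with earlier results of these data known. Named by rule were the 10 enzymes, *Esrra*, called genes and the most abundant gene of each list, and the 5 genes most and 3 least like *Sardh*. Promoters came from RefSeq, gene positions from GENCODE M1 on NCBIM37, the assembly of mm9. Alternatives were another pseudocount, other filters, 2 other scalings, no trend, a replicate block, a Y-linked covariate, each library left out, and an adjusted p for calls.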

Additional observations from a re-analysis of the deposited data

How the results depend on the processing

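The log2 fold change of *Sardh*, for which it was picked, was 1.57 with a pseudocount of 1, 1.74 with quantile normalization, 1.73 with median-ratio scaling and 1.57 to 1.94 with a library left out, and the other alternatives leave this value as it is by construction. Among the other enzymes, *Mthfd1l* ran from −0.031 to 0.41 with a library left out (−0.031 without WT replicate 3, against 0.16), and 1 enzyme was called lower in place of 0 under quantile normalization and 1 under median-ratio scaling, with 0 to 2 when a library was left out. None was called higher in any setting. The 3 pathway genes called lower became 0 with an adjusted p and 1 to 5 with a library left out, and the 0 called higher became 1 (*Ahcy*) with a covariate for missing Y-linked transcripts and 0 to 3 with a library left out. Over all genes, 348 lower and 143 higher became 528 and 277 with no filter, 2 and 2 with an adjusted p, and 252 to 537 and 146 to 214 with a library left out, the 537 being without *Esrra*-/- replicate 2. With no filter, 17679 genes were tested in place of 10596. The causes of these changes were not tested.

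With the replicate number as a block, 441 genes were called lower and 192 higher, and the calls among these enzymes (0 and 0) and the pathway genes (3 and 0) had the same numbers, while 4 of these enzymes in place of 2 were lower at an unadjusted p under 0.05 (1194 in place of 688 of all genes). The covariate for missing Y-linked transcripts also gave 4 (1080 of all genes), and limma without a trend gave 1. Same-numbered libraries did not all deviate together (r of deviations 0.01, 0.26 and 0.38 for numbers 1 to 3), and WT replicate 1 correlated best with *Esrra*-/- replicate 2 (0.18), so the numbers were not taken as pairs. FPKM carry no depth, which leaves the precision of *Dmgdh*, *Gnmt* and *Bhmt* unknown.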

Other observations

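Several genes next to these enzymes varied strongly from mouse to mouse, and the following were singled out after their values were seen. *Cth*, cystathionine gamma-lyase of the transsulfuration branch, had 44.9, 42.8 and 56.5 FPKM in WT and 14.5, 69.0 and 79.1 FPKM in *Esrra*-/-. The spread lay within *Esrra*-/-, where replicate 1 was below and replicates 2 and 3 were above every WT library. *Slc46a1*, the duodenal folate transporter, had 127, 122 and 264 FPKM in WT and 123, 101 and 285 FPKM in *Esrra*-/-. Its high values were those of replicate 3 of each genotype, the 2 libraries with only a trace of Y-linked transcripts, and the other 4 libraries lay between 101 and 127 FPKM. *Alpi*, a brush border phosphatase of villus enterocytes, was also highest in these libraries, at 1358 and 1681 FPKM against 768 to 1150 FPKM in the other 4. *Sardh* was likewise highest in replicate 3 within each genotype, at 5.08 FPKM against 3.67 and 4.80 FPKM in WT and at 19.4 FPKM against 11.6 and 15.6 FPKM in *Esrra*-/-. Whether sex accounts for these levels was not tested.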
